A study of Mus musculus with 6 samples.

Results

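The protein 4.1 family of mouse comprises membrane-skeleton adaptor genes, and the 7 genes taken here were those that the deposited count table lists as Epb4.1, Epb4.1l1, Epb4.1l2, Epb4.1l3, Epb4.1l4a, Epb4.1l4b and Epb4.1l5. They were chosen by symbol alone, out of 24411 genes with a value in every library. All 7 passed the filter on low counts in every comparison.

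Brain RNA was profiled by RiboTag, in which recombination by Cre makes a cell build HA-tagged Rpl22 into its ribosomes, which are then immunoprecipitated (IP) together with the RNA they carry. The icKO mice carried NG2CreERTM, 2 floxed Ank3 alleles and 1 Rpl22-HA allele, and the control mice carried NG2CreERTM and 1 Rpl22-HA allele, so that both genotypes had the same driver and tag. Ank3 encodes ankyrin-G, a scaffold that ties membrane proteins to spectrin. Tamoxifen was given at 8 weeks of age to both genotypes at 100 mg/kg/day for 5 days, and whole brains were taken 1 month later.

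There were 2 icKO IP libraries, 2 control IP libraries, 1 icKO input and 1 control input, where input is the cleared homogenate before the pull-down. Each library came from a pool of 3 animals. The NG2 promoter that drives Cre is known to be active in oligodendrocyte precursors and in pericytes. The IP libraries therefore cannot be read as mature oligodendrocytes alone, and the labels name them as oligodendrocytes. Library totals lay between 18968806 and 23930812 counts. Markers of mature oligodendrocytes (20 genes) summed to 16970 and 16860 CPM (counts scaled to library size, with TMM factors) in icKO IP and to 27580 and 27750 CPM in control IP, against 3723 CPM in icKO input and 3755 CPM in control input. Precursor markers (10 genes) summed to 7430 and 7518 CPM in icKO IP and to 8665 and 8752 CPM in control IP, against 499.4 CPM in icKO input and 447.5 CPM in control input. The median log2 change between IP and input was 3.99 for precursor markers, 3.25 for pericyte and smooth muscle markers and 2.48 for mature oligodendrocyte markers. Markers of pericytes and vascular smooth muscle (10 genes) summed to 839.2 and 855.7 CPM in icKO IP and to 1638 and 1645 CPM in control IP, against 107.5 CPM in icKO input and 112.3 CPM in control input. The 12 neuronal markers summed to 3130 and 3087 CPM in icKO IP and to 2755 and 2799 CPM in control IP, against 12420 CPM in icKO input and 12100 CPM in control input, and none was at 0 in any IP library.

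The targeted gene was still counted in icKO libraries. Ank3 stood at 1162 and 1167 CPM in icKO IP and at 1388 and 1359 CPM in control IP, against 346.5 CPM in icKO input and 380.7 CPM in control input. Its fall between the IP groups was -0.23 ± 0.022 on the log2 scale (SE, adjusted p = 1.31e-10, edgeR quasi-likelihood test, Benjamini-Hochberg adjustment). The table gives 1 count for the whole gene, and which exons were floxed is not stated in the labels. Rpl22, the tagged gene, stood at 45.65 and 41.88 CPM in icKO IP and at 48.34 and 54.02 CPM in control IP, against 72.13 CPM in icKO input and 68.35 CPM in control input (log2 -0.22 between IP groups, adjusted p = 0.00779, edgeR). In bulk libraries of this kind, fewer cells of a type and less RNA per cell cannot be told apart.

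Proteins of the 4.1 family share a FERM domain, named after protein 4.1, ezrin, radixin and moesin, with which they hold the tails of transmembrane proteins at the inner face of the plasma membrane. The classical members Epb4.1 (4.1R), Epb4.1l1 (4.1N), Epb4.1l2 (4.1G) and Epb4.1l3 (4.1B) also have a spectrin-actin binding domain, and so join membrane proteins to the submembrane skeleton. In myelinated nerve the family is known at the axoglial contact, where 4.1B holds the axonal Caspr proteins beside the node of Ranvier and 4.1G holds the adhesion molecule Cadm4 along the Schwann cell internode. Epb4.1l4a, Epb4.1l4b and Epb4.1l5 have the FERM domain but lack the spectrin-actin binding domain.

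How much of a member could be confused with another was read from GENCODE transcripts on GRCm38, the assembly also called mm10. None of the 7 members shared any stretch of 50 bases with another member, and 0.086% to 0.944% of each member's distinct 50-base stretches occurred in any other gene. Coding sequences of the 4 classical members were 54.4% to 60.1% identical by pair (6 pairs), with the longest identical run reaching 28 bases. In the other 15 pairs identity was 39.0% to 56.8%. The coding window of 60 bases most alike among the 4 classical members is shown to let the relatedness be seen, with the same window in Epb4.1l4b and Epb4.1l5; capitals mark bases that differ from Epb4.1l3. It starts at coding base 928 of Epb4.1, 511 of Epb4.1l1, 853 of Epb4.1l2, 574 of Epb4.1l3, 478 of Epb4.1l4b and 352 of Epb4.1l5, each read 5′ to 3′ on the coding strand.
Epb4.1: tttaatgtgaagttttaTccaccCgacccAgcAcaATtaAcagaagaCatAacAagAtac
Epb4.1l1: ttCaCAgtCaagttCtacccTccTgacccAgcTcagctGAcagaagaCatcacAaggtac
Epb4.1l2: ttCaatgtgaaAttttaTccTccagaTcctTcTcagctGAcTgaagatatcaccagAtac
Epb4.1l3: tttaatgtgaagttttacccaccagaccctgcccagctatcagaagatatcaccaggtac
Epb4.1l4b: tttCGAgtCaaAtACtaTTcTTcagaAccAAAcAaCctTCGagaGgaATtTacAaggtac
Epb4.1l5: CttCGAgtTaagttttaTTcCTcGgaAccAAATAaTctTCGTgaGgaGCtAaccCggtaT

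Even in this window Epb4.1 and Epb4.1l2 each differed from Epb4.1l3 at 11 bases and Epb4.1l1 at 13, against 25 for Epb4.1l4b and 27 for Epb4.1l5. The genes lie apart, on chromosomes 4 (Epb4.1, 131923413 to 132075321, minus strand), 2 (Epb4.1l1, 156420909 to 156543214, plus strand), 10 (Epb4.1l2, 25359798 to 25523519, plus strand), 17 (Epb4.1l3, 69075683 to 69289989, plus strand), 18 (Epb4.1l4a, 33796327 to 34006966, minus strand), 4 (Epb4.1l4b, 56991972 to 57143437, minus strand) and 1 (Epb4.1l5, 119545037 to 119649000, minus strand). Epb4.1 shares 91 and 142 exonic bases with 2 opposite-strand genes that have no row in the table, and the other 6 share no exonic base with an annotated gene. The strand setting of the counting is not given in the sources used here. The Epb4.1 count is therefore uncertain by whatever fell on those bases.

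The summed family was close between the IP groups and lower in every IP library than in either input, and its make-up also differed. Summed over the 7 members, the family held 0.1115% and 0.1111% of the counts of the icKO IP libraries and 0.1164% and 0.1166% in the control IP libraries, against 0.1329% in icKO input and 0.1261% in control input. Between the IP groups the ranges did not overlap on this scale, and control IP was the higher. After TMM scaling the sums were 1169 and 1164 CPM in icKO IP and 1152 and 1153 CPM in control IP, against 1287 CPM in icKO input and 1210 CPM in control input. With TMM scaling the order of the IP groups was thus the opposite, so no direction of the family sum between IP groups can be given apart from the scaling.

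To compare members with one another, levels were taken per kb of exon. Per kb, Epb4.1l1, Epb4.1l3 and Epb4.1l2 carried nearly all of the family in every library. In icKO IP, Epb4.1l1 led with 59.71 and 59.62 CPM per kb, before Epb4.1l3 with 55.48 and 54.60 and Epb4.1l2 with 49.45 and 50.43. In control IP, Epb4.1l3 led with 65.77 and 64.58 CPM per kb, and Epb4.1l2 with 51.73 and 53.23 stood above Epb4.1l1 with 50.20 and 49.58. Neighbours in these orders did not overlap between libraries. The order of the 3 depends on the length used: with the longest transcript in place of all exons, Epb4.1l2 held the largest share of the family in icKO IP (35.5%) and in control IP (36.7%).

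The other 4 members were far lower, and their order was Epb4.1, then Epb4.1l4a and Epb4.1l4b, then Epb4.1l5. Epb4.1 had 17.32 and 17.26 CPM per kb in icKO IP and 17.40 and 17.27 in control IP, against 8.316 in icKO input and 9.363 in control input. Epb4.1l4a and Epb4.1l4b overlapped in icKO IP (3.456 and 2.215, against 3.221 and 2.935 CPM per kb), and in control IP Epb4.1l4a was the higher (3.225 and 3.674, against 2.403 and 2.495). Epb4.1l5 was lowest in every library, with 1.316 and 1.307 CPM per kb in icKO IP and 1.200 and 0.9983 in control IP. This too depends on the length used. With the longest transcript, Epb4.1l4a had a smaller family share than Epb4.1l5 in icKO IP replicate 2 (0.9782% against 1.012%). The same held in icKO input (0.5833% against 0.6085%).

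The inputs had another make-up. Epb4.1l1 took 46.25% of the family's counts per kb in icKO input and 47.44% in control input, before Epb4.1l3 with 39.69% in icKO input and 37.96% in control input, while Epb4.1l2 took 8.454% in icKO input and 8.318% in control input. In the IP libraries Epb4.1l2 took 26.03% and 26.77% in icKO and 26.95% and 27.75% in control. Epb4.1l2 thus had a larger share in every IP library than in either input, and Epb4.1l1 a smaller one.

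**Figure D1:**
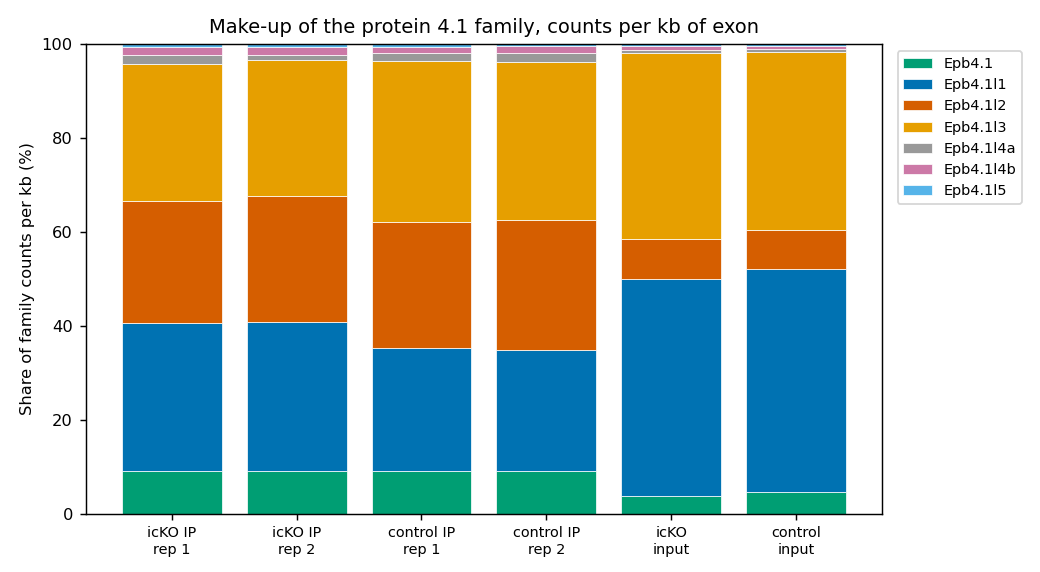
Share of each of the 7 members in the family's counts per kb of exon (y axis, %), as a stacked bar for each of the 6 libraries. The Epb4.1l2 band is 26.03% to 27.75% in the IP libraries, against 8.454% and 8.318% in the inputs, and the Epb4.1l1 band is wider in icKO IP (31.44% and 31.65%) than in control IP (26.16% and 25.85%).

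Pull-down against input. This comparison asks which members were enriched with the tagged ribosomes. Over both genotypes (4 IP against 2 input libraries), 5 members rose, led by Epb4.1l2, and 2 fell, Epb4.1l1 and Epb4.1l3. All 7 passed, beside 68.4% of the 15936 genes tested, of which 34.2% were higher and 34.2% lower. The median change of the 7 members was 0.689 on the log2 scale, and that of all genes 0.0157.

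Epb4.1l2, the broadly expressed 4.1G, had 349.4 and 356.3 CPM in icKO IP and 365.5 and 376.1 CPM in control IP, against 131.4 CPM in icKO input and 120.6 CPM in control input. Every IP library was above both inputs, and the rise was 2.87-fold (log2 1.52 ± 0.077 SE, adjusted p = 8.16e-08, edgeR). Epb4.1, the red cell 4.1R that stabilises spectrin-actin junctions, had 120.4 and 120.0 CPM in icKO IP and 121.0 and 120.1 CPM in control IP, against 57.84 CPM in icKO input and 65.12 CPM in control input. It rose 1.96-fold (log2 0.97 ± 0.073, adjusted p = 1.27e-06, edgeR). Of 5 red cell markers only Alas2 was counted, at 2.036 and 2.155 CPM in icKO IP and 4.056 and 4.051 CPM in control IP, against 7.582 CPM in icKO input and 19.71 CPM in control input. The 4 globin genes were listed at 0 in every library, inputs included, which may not be a measurement, since the handling of these genes before deposit is not known. Alas2, a single gene that also differed between the inputs, was lower in every IP library than in either input, while Epb4.1 was higher. The part of red cells in the Epb4.1 level was not tested.

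Of the members without a spectrin-actin binding domain, all 3 rose with the pull-down. Epb4.1l4a had 12.32 and 7.90 CPM in icKO IP and 11.5 and 13.1 CPM in control IP, against 5.006 CPM in icKO input and 4.36 CPM in control input. Its rise was 2.39-fold (log2 1.26 ± 0.21, adjusted p = 3.84e-04, edgeR) from counts of 96 to 317 a library. Epb4.1l4b, which is known to activate the RhoA exchange factor Arhgef18 at epithelial junctions, had 26.74 and 24.36 CPM in icKO IP and 19.95 and 20.71 CPM in control IP, against 14.82 CPM in icKO input and 13.49 CPM in control input, a 1.61-fold rise (adjusted p = 1.87e-04, edgeR). Epb4.1l5, a partner of Crumbs polarity proteins, had 15.86 and 15.74 CPM in icKO IP and 14.46 and 12.03 CPM in control IP, against 10.06 CPM in icKO input and 8.129 CPM in control input, a 1.60-fold rise (adjusted p = 7.24e-04, edgeR). For each of the 3, every IP library was above both inputs.

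The members known from neurons and axons went the other way. Epb4.1l1, the 4.1N of neurons that binds the AMPA receptor subunit GluA1, had 415.8 and 415.2 CPM in icKO IP and 349.5 and 345.2 CPM in control IP, against 708.5 CPM in icKO input and 677.7 CPM in control input. All IP libraries were below both inputs, and the change was -0.87 ± 0.070 (log2, SE, adjusted p = 1.98e-06, edgeR), a level 1.83-fold lower. Epb4.1l3, the axonal 4.1B, had 228.2 and 224.6 CPM in icKO IP and 270.5 and 265.6 CPM in control IP, against 359.1 CPM in icKO input and 320.3 CPM in control input. It was 1.38-fold lower (log2 -0.47 ± 0.090, adjusted p = 0.00104, edgeR). The 12 neuronal markers all fell in the same comparison, with a median of -2.11, further than either member, and their part in the result was not tested.

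These directions are relative to the average gene. Scaled instead to the 20 mature oligodendrocyte markers, a scaling that moved the median of all genes to -2.45, all 7 members were lower in IP, and scaled to markers of other cell types, which moved it to 1.98, all 7 were higher. A scaling moves all genes alike, so the members' changes relative to that median stay nearly fixed by construction: 1.51 for Epb4.1l2 and -0.466 for Epb4.1l3 under mature oligodendrocyte scaling.

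**Figure D2:**
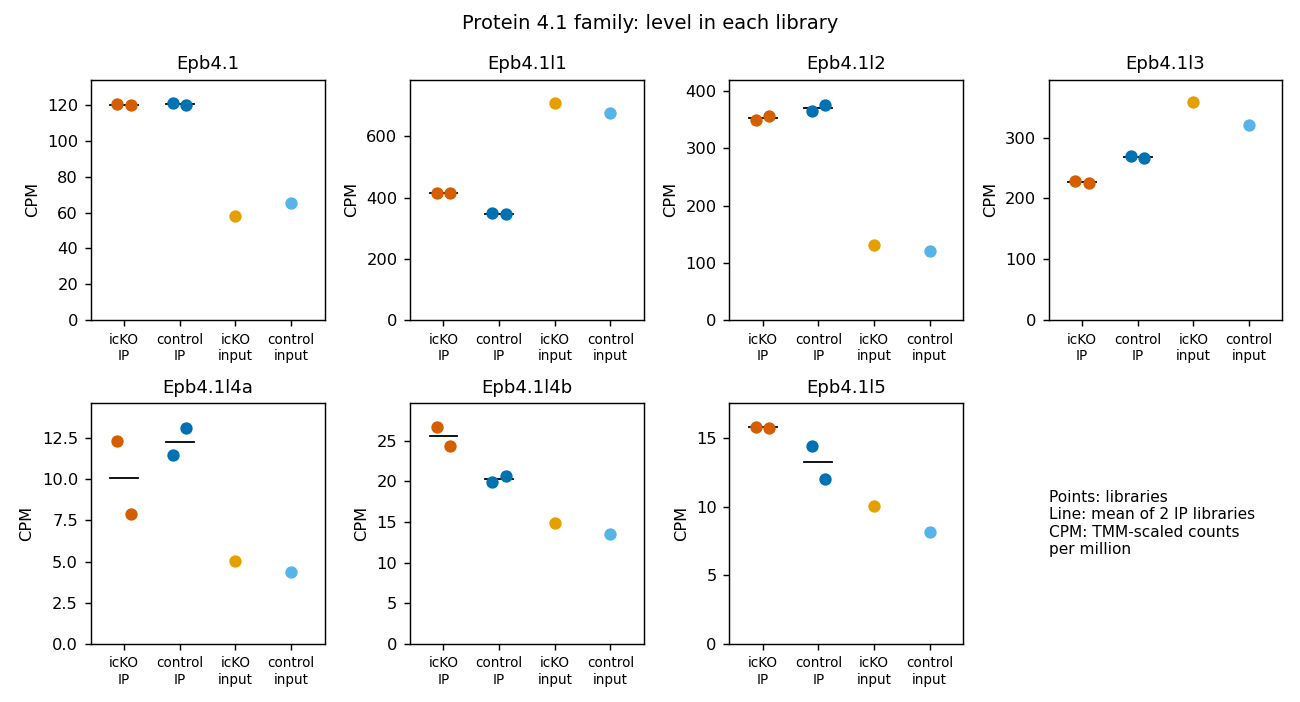
TMM-scaled CPM (y axes, linear from 0) of each member in the 2 icKO IP, 2 control IP, 1 icKO input and 1 control input libraries, with points for libraries and lines for the means of IP pairs. Epb4.1, Epb4.1l2, Epb4.1l4a, Epb4.1l4b and Epb4.1l5 lie higher in IP than in input, Epb4.1l1 and Epb4.1l3 lower, and the Epb4.1l4a libraries of icKO IP (12.32 and 7.90 CPM) spread most.

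icKO IP against control IP. This comparison asks how the RNA on tagged ribosomes differed between brains with and without the floxed Ank3 alleles. Epb4.1l1 and Epb4.1l4b rose, Epb4.1l3 fell and the other 4 members did not pass the test. That is 3 of 7 members beside 47.2% of the 15069 genes tested, of which 22.1% were higher and 25.2% lower. The changes were small: the member that rose most, Epb4.1l4b, was 1.26-fold higher.

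Epb4.1l1 stood at 415.5 ± 0.43 CPM in icKO IP (mean ± SD, n = 2) and at 347 ± 3.1 CPM in control IP. The pairs did not overlap, and the rise was 1.20-fold (log2 0.26 ± 0.028 SE, adjusted p = 1.89e-09, edgeR quasi-likelihood test, Benjamini-Hochberg adjustment). Neuronal markers summed to 3130 and 3087 CPM in icKO IP against 2755 and 2799 CPM in control IP. Of these 12, 6 rose and 3 fell (all genes 22.1% and 25.2%), with a median change of 0.0836. Much of the higher sum lay in Camk2a, at 1204 and 1209 CPM in icKO IP against 982.2 and 982.5 CPM in control IP. Snap25, Syp and Tubb3 were lower in both icKO IP libraries than in both control IP libraries. Astrocyte markers summed to 1930 and 1894 CPM in icKO IP against 1861 and 1862 CPM in control IP. Of these 10, 6 rose and 1 fell (all genes 22.1% and 25.2%), with a median change of 0.255. The part of neuronal and astrocyte RNA in the result was not tested.

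Epb4.1l3 was the one member that fell. Its 4259 and 4065 counts in icKO IP stood against 5669 and 6426 counts in control IP, which gave 226.4 ± 2.6 CPM in icKO IP and 268.1 ± 3.5 CPM in control IP (SD, n = 2 each). The pairs were apart, and the level was 1.18-fold lower (log2 -0.24 ± 0.032, adjusted p = 1.80e-07, edgeR). Of all genes tested, 25.2% were lower in this comparison. Beside Epb4.1l3, 18 of 20 mature oligodendrocyte markers fell, with a median of -0.752. All 10 pericyte and smooth muscle markers fell, with a median of -0.956. Precursor markers fell in 8 of 10 cases, and their sum was 7430 and 7518 CPM in icKO IP against 8665 and 8752 CPM in control IP. What these shifts had to do with Epb4.1l3 was not tested.

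Epb4.1l4b had 499 and 441 counts in icKO IP and 418 and 501 counts in control IP, which differ less than its scaled levels because the control libraries were deeper. Its rise on the scaled levels was 0.33 ± 0.093 (log2, SE, adjusted p = 0.00359, edgeR). The scaled pairs did not overlap. This call did not hold when icKO IP replicate 1 was left out (log2 0.26, adjusted p = 0.0632, edgeR) or when a correction for transcript length was applied (log2 0.19, adjusted p = 0.106, edgeR). Over its 13 alternatives the adjusted p ran from 4.55e-15, with mature oligodendrocyte scaling, to that 0.106.

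Among those that did not pass, Epb4.1 was the nearest to no change. Its difference was 2.27e-05 on the log2 scale with a 95% interval of -0.085 to 0.085 (edgeR), so a change of more than about 1.06-fold either way lies outside that interval. Its libraries overlapped. With the length correction its difference was -0.11 (adjusted p = 0.0294, edgeR).

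Epb4.1l2 lay just outside the threshold. Both icKO IP libraries (349.4 and 356.3 CPM) were below both control IP libraries (365.5 and 376.1 CPM), and the difference was -0.07 with an interval of -0.13 to -0.0097 (adjusted p = 0.0504, edgeR). It passed when libraries were scaled to their totals (log2 -0.15, adjusted p = 4.13e-05, edgeR), with no filter on low counts, without icKO IP replicate 2, without control IP replicate 1 and with the length correction (log2 -0.18, adjusted p = 5.65e-06, edgeR). It did not pass at a mean of at least 5 CPM (log2 -0.04, adjusted p = 0.266, edgeR) or with DESeq2 size factors (adjusted p = 0.0678, edgeR). Nor did it pass with markers of other cell types as the scale (adjusted p = 0.0941, edgeR) or in the DESeq2 test (adjusted p = 0.165). It also missed the threshold without icKO IP replicate 1 (log2 -0.06) and without control IP replicate 2 (log2 -0.05).

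Epb4.1l5 and Epb4.1l4a were the least certain. Epb4.1l5 was higher in both icKO IP libraries (15.86 and 15.74 CPM) than in both control IP libraries (14.46 and 12.03 CPM), by 0.26 ± 0.12 (log2, SE, adjusted p = 0.0644, edgeR), and passed without control IP replicate 1 (log2 0.40, adjusted p = 0.0169, edgeR) and was at 0.13 without control IP replicate 2 (adjusted p = 0.502, edgeR). With the length correction it was 0.0413 (adjusted p = 0.805, edgeR). Epb4.1l4a overlapped between groups, since its 230 counts in icKO IP replicate 1 and 143 in replicate 2 were far apart, against 241 and 317 in control IP. Its difference was -0.28 ± 0.15 (adjusted p = 0.127, edgeR). Without icKO IP replicate 1 it was -0.64 (adjusted p = 9.04e-04, edgeR), without icKO IP replicate 2 it was 0.0029 (adjusted p = 0.992, edgeR), and without control IP replicate 2 it was -0.18 (adjusted p = 0.396, edgeR), so that its size turned on single libraries.

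**Figure D3:**
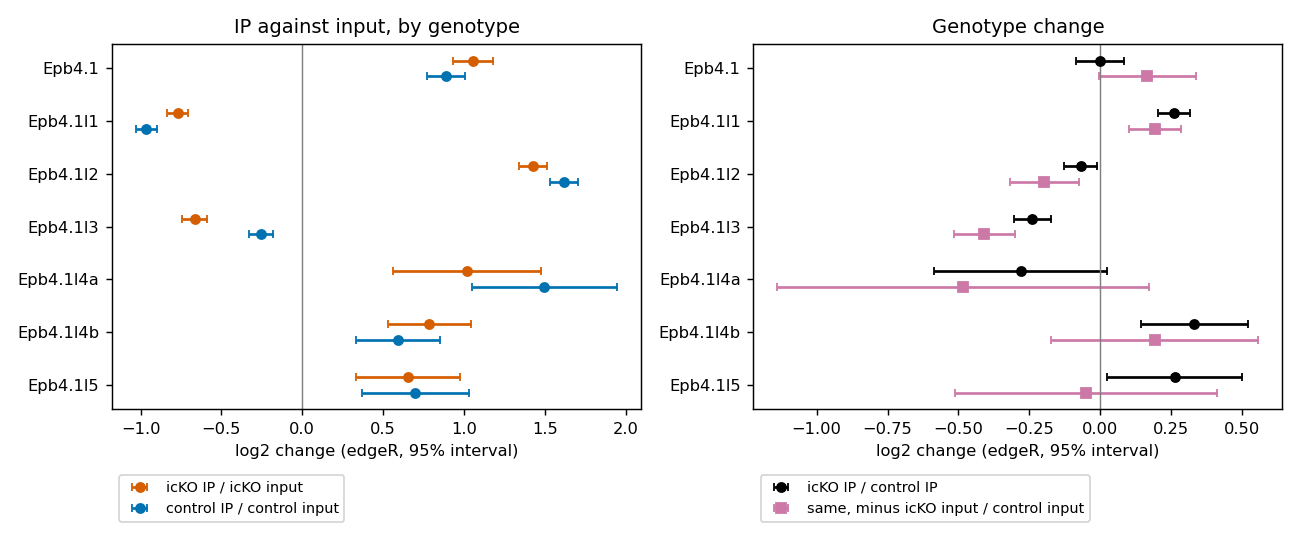
Log2 changes with 95% intervals from edgeR (x axes) for the 7 members (rows). Left, IP against input in icKO and in control; right, icKO IP against control IP and the same change minus that between the inputs. Epb4.1l3 is the member whose icKO and control values on the left lie apart most clearly (-0.67 and -0.26).

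Ratios between members within a library do not depend on how libraries are scaled. The ratio of Epb4.1l1 to Epb4.1l3 counts was 1.82 and 1.85 in icKO IP and 1.29 and 1.30 in control IP, against 1.97 in icKO input and 2.12 in control input. It was thus higher in both icKO IP libraries than in both control IP libraries, and the inputs differed the other way. The ratio of Epb4.1l2 to Epb4.1l1 was 0.840 and 0.858 in icKO IP and 1.05 and 1.09 in control IP, against 0.185 in icKO input and 0.178 in control input. That of Epb4.1l2 to Epb4.1l3 was 1.53 and 1.59 in icKO IP and 1.35 and 1.42 in control IP, against 0.366 in icKO input and 0.376 in control input. Whichever library is taken, the pull-down shifted the family's balance from 4.1B and 4.1N towards 4.1G by more than the genotype did. No test was made on these ratios.

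The scaling sets where the line of no change lies, and scaling to library totals moved the median change of all genes to -0.083 and scaling to mature oligodendrocyte markers to 0.747, at which all 7 members rose, Epb4.1l3 by 0.50 and Epb4.1l2 by 0.68. Taken relative to that median, Epb4.1l1 was 0.259 above it and Epb4.1l3 0.243 below it (change minus median of -0.243) under oligodendrocyte scaling and with TMM alike. This holds by construction, since a scaling moves all genes alike.

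**Figure D4:**
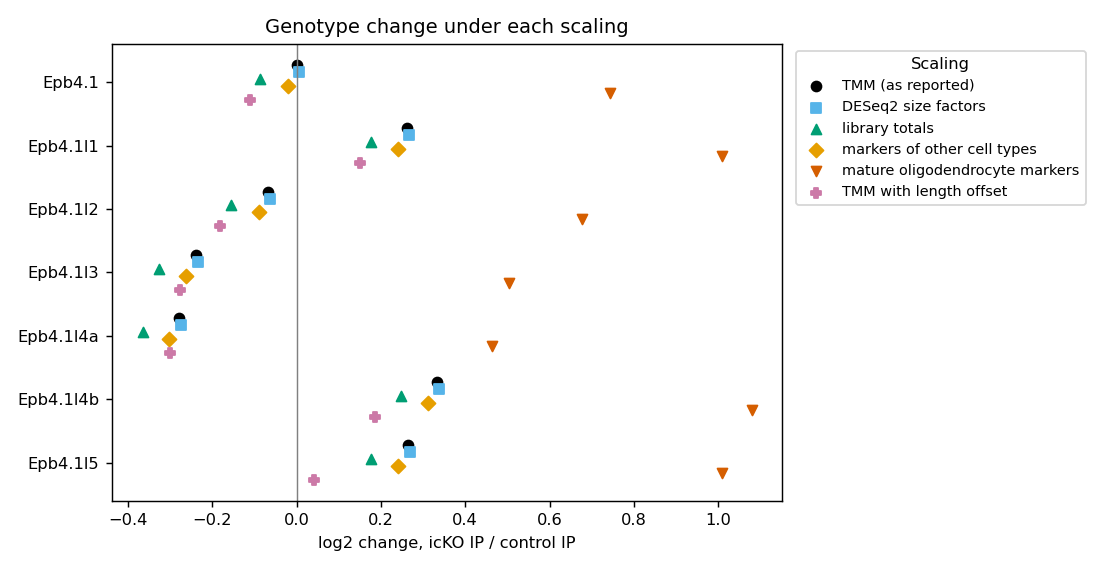
Log2 change of icKO IP against control IP (x axis) for each member (rows) under 6 ways of scaling or correcting the counts (symbols). Markers of mature oligodendrocytes as the scale put all members above 0 (0.463 to 1.077); under the other 5, Epb4.1l1, Epb4.1l4b and Epb4.1l5 lie above 0 and Epb4.1l2, Epb4.1l3 and Epb4.1l4a below it.

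Genotype change in IP against that in input. With 1 input a genotype, this asks whether the change seen in the pull-down was also there in the homogenate, and each lone input was assumed to vary like the IP pairs. Of the 7 members 1 was called higher and 2 lower, beside 23.6% of 15936 genes (9.67% higher and 13.9% lower). Of the 3 called members Epb4.1l3 differed most: it was higher in icKO input than in control input, by 0.165 on the log2 scale with a counting interval of 0.118 to 0.213, but lower in icKO IP than in control IP, a difference of -0.41 ± 0.052 (SE, adjusted p = 6.73e-07, edgeR). Put by genotype, it was 1.59-fold lower in icKO IP than in icKO input (log2 -0.67) and 1.19-fold lower in control IP than in control input (log2 -0.26).

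Epb4.1l1 rose more in IP than between the inputs, where the ratio was 0.0642 (0.0312 to 0.0972), and the difference was 0.19 ± 0.045 (adjusted p = 0.00157, edgeR). With the markers of other cell types as the scale this became 0.0796 and did not pass (adjusted p = 0.314, edgeR). Epb4.1l2 was higher in icKO input by 0.124 (0.0465 to 0.202) and gave a difference of -0.20 ± 0.059 (adjusted p = 0.0148, edgeR), which was past the threshold in edgeR and not in DESeq2 (adjusted p = 0.07). Epb4.1 was lower in icKO input by 0.171 (log2 ratio -0.171, interval -0.283 to -0.0592), and its difference of 0.17 did not pass (adjusted p = 0.160, edgeR). The other 3 members did not pass, with wide 95% intervals of the difference of -1.14 to 0.17 for Epb4.1l4a, -0.17 to 0.56 for Epb4.1l4b and -0.51 to 0.41 for Epb4.1l5. Without icKO IP replicate 1 the Epb4.1l4a difference was -0.84 and passed (adjusted p = 0.0343, edgeR), and without icKO IP replicate 2 it was -0.20. For scale, the ratio between the inputs lay between -0.583 and 0.61 for the middle 90% of genes, with no replicate to judge it by. The intervals cover counting error only.

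By genotype, the 1 input library of each arm was again assumed to vary like the IP pairs (BCV 3.01%). The fit over both genotypes had a BCV of 8.64%, which also holds any difference of the genotype change between IP and input. Each of the 7 members passed between IP and input in icKO, with 69.4% of genes called (34.7% higher and 34.8% lower), and in control, with 68.3% called (34.4% higher and 33.9% lower). Of the 7, 5 were higher and 2 lower in each genotype, in the same direction in both. Log2 changes in icKO and control were 1.06 and 0.89 for Epb4.1, -0.77 and -0.96 for Epb4.1l1, and 1.42 and 1.62 for Epb4.1l2. They were 1.02 and 1.5 for Epb4.1l4a, 0.79 and 0.59 for Epb4.1l4b and 0.65 and 0.70 for Epb4.1l5.

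Genes of the proteins that 4.1 proteins bind were counted in the same comparisons, where 47.2% of all genes were called between icKO IP and control IP (22.1% higher and 25.2% lower) and 68.4% between IP and input (34.2% higher and 34.2% lower). Largest rises and falls are named among called genes with a mean of at least 5 CPM in the IP libraries. Of 21 measured membrane skeleton genes (spectrins, actin, adducins and relatives), 9 rose and 8 fell between icKO IP and control IP, with a median of -0.0762, and 13 rose and 6 fell between IP and input, with a median of 0.516. The largest rise was in Sptan1, the alpha spectrin of non-red cells, at 38350 and 38110 CPM in icKO IP and 14400 and 13910 CPM in control IP, against 1246 CPM in icKO input and 1180 CPM in control input (log2 1.44 between IP groups, adjusted p = 2.66e-35, edgeR). Its partner Sptbn1 rose by 1.03 (adjusted p = 3.98e-30, edgeR), while the largest fall at 5 CPM or more was in Actb (log2 -0.50, adjusted p = 4.85e-20, edgeR). Of the 4 members with a spectrin-actin binding domain, Epb4.1l1 rose, Epb4.1l3 fell and Epb4.1 and Epb4.1l2 did not pass in the same comparison. Of the pair that anchors 4.1R in red cells, Gypc fell (log2 -0.63, adjusted p = 0.0308, at 3.13 CPM on average, edgeR) and Mpp1 was at -0.05 (adjusted p = 0.725, edgeR).

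Among 18 axoglial partners 7 rose and 7 fell between icKO IP and control IP (all genes 22.1% and 25.2%), with a median of -0.0431. Between IP and input 7 rose and 9 fell (all genes 34.2% and 34.2%), with a median of -0.155. Cadm4, the adhesion molecule that 4.1G holds in Schwann cells, had the largest fall. It stood at 322.3 and 326.9 CPM in icKO IP and 480.6 and 474.7 CPM in control IP, against 227.4 CPM in icKO input and 206.1 CPM in control input (log2 -0.55 between IP groups, adjusted p = 2.11e-17, edgeR). Cadm1 was at -0.08 (adjusted p = 0.0918, edgeR). The axonal Caspr genes, whose products bind 4.1B, rose: Cntnap1 by 0.29 (adjusted p = 2.43e-05, edgeR), Cntnap2 by 0.26 (adjusted p = 4.38e-04, edgeR) and Cntnap4, with the largest rise, by 0.62 (adjusted p = 2.52e-06, edgeR). All 3 were lower in IP than in input.

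Of 19 scaffold and polarity genes tested between genotypes, 7 rose, 3 fell and 9 did not pass, with a median of 0.0114, so that the called share was near that of all genes. Between IP and input 4 of 20 rose and 11 fell (all genes 34.2% and 34.2%), with a median of -0.568. At 5 CPM or more, Lin7b rose most (log2 0.67, adjusted p = 2.50e-04, edgeR) and Lin7c fell most (-0.27, adjusted p = 0.0013, edgeR). Cask and Mpp5, which bind 4.1 proteins in other tissues, fell by 0.18 and 0.17 (adjusted p = 2.90e-05 and 0.00355, edgeR), and Dlg1 was at 0.01 (adjusted p = 0.797, edgeR).

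Of 9 synaptic partners of 4.1N, 7 rose and 1 fell between icKO IP and control IP (all genes 22.1% and 25.2%), with a median of 0.38. Between IP and input 3 rose and 4 fell (all genes 34.2% and 34.2%), with a median of -0.723. Gria1, which encodes GluA1, had 312.4 and 311.9 CPM in icKO IP and 237.5 and 243.3 CPM in control IP, against 554.4 CPM in icKO input and 548 CPM in control input (log2 0.38 between IP groups, adjusted p = 4.31e-12, edgeR). Itpr1, the calcium release channel that 4.1N also binds, rose by 0.29 (adjusted p = 2.20e-11, edgeR). Drd2 rose most (0.66, adjusted p = 3.50e-05, edgeR), and Adora1 was the one that fell (log2 -0.45, adjusted p = 4.96e-12, edgeR). Gria1, Itpr1 and Drd2 were lower in every IP library than in either input, like Epb4.1l1 itself. Gria2, Gria3 and Gria4 went the other way and were higher in every IP library than in either input.

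Of 12 adhesion and contractility genes linked to Epb4.1l5 and Epb4.1l4b, 10 rose with the pull-down and 1 fell (all genes 34.2% and 34.2%), with a median of 1.75. Between genotypes 3 rose and 4 fell (all genes 22.1% and 25.2%), with a median of 0.0146. Myh10, a nonmuscle myosin, rose most (log2 1.27, adjusted p = 2.75e-31, edgeR) and the integrin Itgb8 fell most (-0.36, adjusted p = 8.67e-10, edgeR). Pxn, which encodes paxillin, fell by 0.17 (adjusted p = 0.0245, edgeR). Ctnnd1 at 0.03 and Arhgef18 at 0.08 did not pass (adjusted p = 0.518 and 0.197, edgeR).

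In the other FERM genes 17 of 26 rose with the pull-down and 4 fell (all genes 34.2% and 34.2%), with a median of 0.771. Between genotypes 11 rose and 7 fell (all genes 22.1% and 25.2%), with a median of 0.0957. Krit1 rose most (log2 0.53, adjusted p = 1.67e-10, edgeR) and Msn, moesin, fell most (-0.50, adjusted p = 2.20e-07, edgeR). Ezrin and radixin went opposite ways, with Ezr up by 0.30 (adjusted p = 0.0109, edgeR) and Rdx at -0.25 (adjusted p = 2.37e-08, edgeR).

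The genes most like each member across the 6 libraries were found by the root mean square difference of centred log2 CPM over 11643 genes, which share libraries and depth, so that these are descriptions. For Epb4.1l1 the nearest was Mmp24 (0.0231). For Epb4.1l3 they were Hars (0.0168) and Akirin2 (0.031). For Epb4.1l2 they were Chst11 (0.0294) and Arsb (0.03), for Epb4.1 Zfp579 (0.0428) and Cep170 (0.0453), and for Epb4.1l4b Zswim6 (0.0275) and Ythdc2 (0.0282). Epb4.1l5 had Slc13a5 (0.044) and Pacrgl (0.048), and Epb4.1l4a, with the noisiest counts, Gm7694 (0.0892) and Hmox1 (0.105). No member was among the 2 nearest genes of another.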

How the data were processed

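The authors deposited raw counts per gene symbol, 1 column a library. Trimmomatic 0.39, STAR 2.7.10b and mm10 are named in the submitters' processing notes. The sources used here do not give the counter, annotation or strand setting. The kit was Takara SMARTer stranded total RNA (pico input), per the labels' protocols. Of 24421 rows, 10 without an input value were left out. Library totals were 18968806 to 23930812. Groups came from the labels; 1 library has cKO in its title but AnkG icKO as its genotype, and was taken as icKO IP replicate 1. The IP titles say biological replicates, but not whether the pools held different mice, so p-values measure just the spread between libraries, which may be technical.

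Counts were scaled with TMM, kept by filterByExpr and tested two-sided with edgeR 4.0.16 (quasi-likelihood, R 4.3.3, Benjamini-Hochberg adjusted p under 0.05). A prior count of 2 entered the log2 CPM behind the input ratios, the genes most like each member and the length correction. The 4 IP libraries had their own fit (BCV 3.01%, residual df 2). IP against input used all 6 libraries with genotype as a term, and the difference of changes used 4 groups. Lengths and sequences came from a GENCODE annotation of GRCm38; 98.2% of genes had a length. Fits were tested on simulated data. DESeq2 1.42.0, other scalings, filters, a length correction, a block and libraries left out were the alternatives.

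Members, lists and the naming rule were chosen with earlier results of these data known. Named were the 7 members, Ank3, per list the largest rise and fall past the threshold at 5 CPM or more, up to 3 known partners, and the 2 genes most like each member, of which 1 is not reported here. Counting intervals are at 95%.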

Additional observations from a re-analysis of the deposited data

Results flagged for a closer look

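For 3 members the genotype change in IP differed from that between the inputs by the test of the difference itself. It was 0.194 for Epb4.1l1, -0.196 for Epb4.1l2 and -0.409 for Epb4.1l3 (log2, icKO against control in IP minus the same in input, adjusted p = 0.00157, 0.0148 and 6.73e-07, edgeR's quasi-likelihood test). Each input was 1 library, assumed to vary like the IP pairs. Counts differed by 2.13 and 2.19 times sampling noise within the icKO and control IP pairs (chi-square per degree of freedom). Between the inputs they differed by 5.63 times, but these are of different genotype, so that value also holds any genotype change. Between icKO IP replicate 1 and control IP replicate 1 it was 73.1. How much a lone input varies cannot be read from these values. Epb4.1l2 did not pass in DESeq2 (adjusted p = 0.07), nor Epb4.1l1 with other cell type markers as the scale (adjusted p = 0.314, edgeR).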

How the results depend on the processing

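With 2 libraries in an IP group and 1 in an input group, small changes were at the limit of what could be called. With mature oligodendrocyte scaling, icKO IP against control IP gave 13108 called genes (7119 with TMM), 99.4% of them higher (46.7% with TMM, 32.6% with library totals), and Epb4.1l2, Epb4.1l3 and Epb4.1l4a turned to 0.676, 0.504 and 0.463. The length correction put Epb4.1 at -0.112. In scalings chosen after seeing the data, IP against input under mature oligodendrocyte scaling was -1.5 for Epb4.1, -0.938 for Epb4.1l2, -1.20 for Epb4.1l4a, -1.78 for Epb4.1l4b and -1.78 for Epb4.1l5, and under other cell type scaling 1.1 for Epb4.1l1 and 1.5 for Epb4.1l3. The difference of changes under mature oligodendrocyte scaling was 0.56 for Epb4.1l2, 0.348 for Epb4.1l3 and 0.708 for Epb4.1l5, with 10952 genes called, against 1829 in DESeq2 and 3763 in edgeR. These shifts follow from the scale factors; the cause of the DESeq2 and length differences was not tested. The share of Epb4.1l1 was 35.6% in icKO IP, 55.1% in icKO input and 56% in control input without length, and 28.1%, 45.2% and 46.3% with the longest transcript (chosen later); that of Epb4.1l3 in control IP was 23.3% and 28.6%. Leaving out 1 library gave 5905 to 6242 called genes between IP groups, 10169 to 11076 between IP and input, 10583 to 11206 in icKO, 10323 to 11020 in control and 3515 to 3889 for the difference. Same-numbered IP libraries did not deviate together (r = -0.00313), so the numbers do not pair them; with the replicate block 7277 genes were called, Epb4.1l2 passed (-0.068, adjusted p = 0.0495, edgeR) and no other member's call changed.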

Other observations

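A pair of genes with like symbols was left out of the family. Epb4.1l4aos, a noncoding neighbour of Epb4.1l4a, had 44 and 43 counts in icKO IP and 61 and 33 in control IP, against 54 in icKO input and 68 in control input. Epb4.2, the red cell membrane protein band 4.2, which is no 4.1 protein, had 1 and 4 counts in icKO IP and 0 and 1 in control IP, against 8 in icKO input and 7 in control input.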
